A study of Mus musculus with 4 samples.

Results

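The genes described here are 9 genes of haem synthesis and iron uptake, measured in single cells of mouse bone marrow from mice with and without Toll-like receptor 9 (TLR9). Alas2 encodes the erythroid form of 5-aminolevulinate synthase, the enzyme that starts the pathway, and Alad, Uros, Urod, Cpox, Ppox and Fech encode later enzymes, of which ferrochelatase (Fech) puts the iron into the ring. Tfrc encodes the transferrin receptor, which brings iron into the cell, and Slc25a37 encodes mitoferrin 1, which carries iron into the mitochondrion. The members were the rows of the 4 deposited matrices with these symbols, which were 9 of 31053 genes, and each symbol matched 1 row. The rule used no measured value.

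Haem synthesis starts in the mitochondrion, passes through the cytosol and ends in the mitochondrion again. Precursors of red blood cells make most of the haem of an animal, as the iron-carrying group of haemoglobin, and take up iron through transferrin receptors on their surface. Other cells make smaller amounts of haem for cytochromes and other enzymes and use the housekeeping form of the first enzyme, encoded by Alas1.

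The study compared cell populations of bone marrow between TLR9-/- and wild-type (WT) mice, both on the C57BL/6 background. Mononuclear cells were flushed from femur and tibia, separated on Ficoll and put through the 10x Genomics Chromium 5′ assay, in which each captured RNA molecule carries a unique molecular identifier (UMI). There were 2 TLR9-/- and 2 WT libraries, each from 1 mouse, numbered 1 and 2 within each genotype. The study ran the mice as 2 experiments, with 1 mouse of each genotype in each, and whether the library number marks the experiment is not given in the sources used here. The labels give no age for these mice, and the sources say that the disrupted Tlr9 allele was genotyped on tail DNA and that the genotypes were bred in separate cages, so genotype and cage cannot be told apart. The genotype is that of the whole animal and not of 1 cell type. Values of the 4 libraries are given throughout in the order TLR9-/- 1, TLR9-/- 2, WT 1 and WT 2.

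The files held 40545 cells, of which 39167 had between 200 and 10000 detected genes and at most 10% mitochondrial UMIs and were kept, 8895 to 10781 per library. The kept cells held 31210188 to 63958243 UMIs per library, with a median of 1759 to 3618 UMIs per cell. Counts of Tlr9 itself were 41, 48, 120 and 97 UMIs, or 0.817, 0.75, 3.84 and 2.34 when scaled to 1000000 UMIs (CPM), so the gene was read in TLR9-/- cells too, at a lower level than in WT. Only 1 of these UMIs lay in an erythroid-like cell. Of the barcodes, 797 occurred in more than 1 library. In erythroid cells, the ratio of beta globin to alpha globin UMIs was 5.52, 1.29, 5.76 and 1.18, so libraries with the same number resembled each other and libraries of the same genotype did not. Many values below that rest on globin are therefore given by library, and a mean or median over the libraries can hide this split.

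Transcripts of 2 members hold iron-responsive elements, short RNA hairpins that iron regulatory proteins bind, which are shown because they tie these genes to the iron level of the cell in different ways. A hairpin in the 5′ untranslated region, as in Alas2, is known to hold back translation, and hairpins in the 3′ untranslated region, as in Tfrc, are known to protect the transcript from decay when iron is low. A search of 28 transcripts of the 9 members for a bulged C, an upper stem of 5 base pairs, a loop of 6 bases and at least 4 pairs of the lower stem found 5 elements, 1 in Alas2 and 4 in Tfrc, and none in the other members. The Alas2 element lies in exon 1, in the 5′ untranslated region, at chrX:150547459-150547485 on the plus strand, and the Tfrc elements lie in exon 19, in the 3′ untranslated region, at chr16:32631220-32631246, chr16:32631599-32631625, chr16:32631664-32631690 and chr16:32631711-32631737 on the plus strand (GRCm38, GENCODE vM21). They read as follows, 5′ to 3′ as DNA, with the bulged C and the loop in capitals.
Alas2 element: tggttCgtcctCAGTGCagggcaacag
Tfrc element 1: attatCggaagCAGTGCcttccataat
Tfrc element 2: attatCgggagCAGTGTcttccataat
Tfrc element 3: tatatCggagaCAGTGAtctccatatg
Tfrc element 4: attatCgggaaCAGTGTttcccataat

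The promoters were searched because the members share their highest levels in erythroid cells, in which GATA factors and the CACCC-binding factor KLF1 are known to act. RefSeq start sites (GRCm38.p6) were found for 7 members with 10 promoters, and none for Fech and Slc25a37 in the table used. In the 250 bases before the start, a GATA word (AGATAA and TGATAA as well as AGATAG and TGATAG, on either strand) was found in 3 of the 10, against 26.6% of 32817 promoters in all, and the CACCC word CCNCNCCC, on either strand, in 6 of the 10, against 45.9% of all. The CACCC word has free positions, and its matches in both Alad promoters and in 1 Uros promoter do not hold the letters CACCC themselves. The stretches before the 2 start sites of Alad overlap and share a match of this word, so the 10 promoters are not all separate. The GATA words lay in the promoters of Alas2, of Cpox and of the second start site of Uros. Only the Alas2 promoter held both words, which 8.20% of all promoters did. A match of letters is a description, and neither binding nor use of these sites was measured here.

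The stretches of Alas2 (chrX:150547167-150547374, plus strand, 208 bases, ending where GENCODE places exon 1) and Cpox (chr16:58669958-58670207, plus strand, 250 bases) are shown with the GATA words in capitals, on the opposite strand in both. The Alas2 word lay 86 bases before the RefSeq start and the overlapping Cpox words 91 and 86 bases before it. The CACCC words of Alas2 lay in the 42 bases nearest the RefSeq start, which GENCODE counts as exon and which are not printed.
Alas2 promoter: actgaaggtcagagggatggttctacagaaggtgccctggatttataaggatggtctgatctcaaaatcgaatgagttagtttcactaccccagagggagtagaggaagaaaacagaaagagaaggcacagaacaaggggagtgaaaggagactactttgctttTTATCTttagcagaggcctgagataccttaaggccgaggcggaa
Cpox promoter: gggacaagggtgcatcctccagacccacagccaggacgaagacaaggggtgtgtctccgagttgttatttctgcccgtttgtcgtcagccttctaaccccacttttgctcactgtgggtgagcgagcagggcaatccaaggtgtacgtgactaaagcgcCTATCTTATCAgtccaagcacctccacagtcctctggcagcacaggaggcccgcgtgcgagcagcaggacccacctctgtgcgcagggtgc

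Cells were clustered without the 9 members, and clusters were named from marker lists that held none of them. Of 26 clusters, 3 with 3781 cells were erythroid-like. The early erythroid-like cluster (952 cells, 204, 277, 187 and 284 per library) was led by Mt2, Car1 and C1qtnf12, the middle cluster (1756 cells, 321, 272, 786 and 377) by the band 3 gene Slc4a1, Mgst3 and Hba-a1, and the globin-rich cluster (1073 cells, 270, 130, 552 and 121) by Tmcc2, Hbb-bs and Hba-a2. Interferon-stimulated genes, Rsad2 and Isg15, were also among the leading genes of the globin-rich cluster. The middle and globin-rich clusters carried the late erythroid markers and together form the late erythroid-like class. Erythroid-like cells were 7.37%, 7.61%, 14.4% and 8.79% of the kept cells, with a mean of 7.49% ± 0.170 (SD, n = 2) in TLR9-/- and 11.6% ± 3.98 (n = 2) in WT (two-sided exact permutation test, p = 0.333, the smallest that 2 against 2 libraries allow).

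These 3 clusters differed in RNA content as well as in globin. The median was 10831 to 20735 UMIs per cell in the early cluster, 2283 to 8479 in the middle cluster and 1127 to 1626 in the globin-rich cluster. Globin took a median of 21.3%, 5.19%, 29.0% and 7.66% of a cell's UMIs in the middle cluster and 53.1%, 43.4%, 56.6% and 49.9% in the globin-rich cluster, so the middle cluster held more globin in the libraries numbered 1 than in those numbered 2. Levels below are CPM, scaled to the UMIs of the same cells, which makes them a share, and a higher share in a smaller cell need not be more molecules. UMIs per cell are therefore given beside the levels of each member. The 5′ UMIs are not scaled by transcript length, so levels are compared within a gene and not between genes.

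Markers of other cells were present in these clusters beside the erythroid ones. The B cell precursor list of 22 genes summed to 1256 to 1705 CPM in the early cluster, 3230 to 5582 in the middle cluster and 4366 to 6972 in the globin-rich cluster. It was thus higher in the stages in which the members were higher. The sum does not show which of the 22 genes, or which cells, it came from. The 14 immature neutrophil markers summed to 290.4 to 546 CPM in the early cluster and 991 to 1358 in the middle cluster. They include Mki67, which is also in the list of G2 and mitosis genes used below. Scaled to the UMIs other than globin, Mki67 alone stood at 211 to 293 CPM in the early and 982 to 1216 in the middle cluster. This sum therefore does not stand for neutrophils alone. The summed level of the 18 mature neutrophil markers was 286 to 1088 CPM in the early cluster, at most 559.6 in the middle cluster and 1015, 4920, 3553 and 7857 in the globin-rich cluster, and that of the B cell list in the globin-rich cluster was 1087, 5341, 2469 and 4800. The T cell list summed to 16 to 67 CPM in the globin-rich cluster, with 7 of its 20 genes at 0. The late erythroid list summed to 385404 to 547924 CPM there, against 55471 to 220731 in the middle cluster and 4534 to 10667 in the early cluster. The part of these other cells in the differences between the clusters was not tested.

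All 9 members had a higher level in the middle than in the early cluster in 4 of 4 libraries. From the middle to the globin-rich cluster, 5 were higher in every library (Alas2, Urod, Fech, Tfrc and Slc25a37), 2 were lower in every library (Alad and Cpox) and 2 were mixed (Uros and Ppox). These differences between stages are a description with the spread over the 4 libraries, without a test, since the stages were cut from the same cells.

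Alas2, whose product sets the pace of haem synthesis in erythroid cells, stood at 21.6, 19.5, 32.8 and 22.6 CPM in the early cluster, from 62, 108, 73 and 106 UMIs. It stood at 875, 654, 898 and 539.7 CPM in the middle cluster and at 3026, 5039, 2289.8 and 3135 CPM in the globin-rich cluster. The 3 stages did not overlap in any library. The middle cluster was higher than the early one by a log2 difference of 4.94 ± 0.33 (SD, n = 4 libraries), a 30.7-fold difference, and the globin-rich cluster was higher than the middle one by 2.16 ± 0.72, a 4.46-fold difference. Alas2 also had more UMIs per cell at each stage despite the falling RNA content, with 0.304, 0.390, 0.390 and 0.373 in early, 3.26, 6.07, 2.81 and 4.02 in middle and 5.76, 8.48, 4.17 and 4.65 in globin-rich cells.

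Alad, which joins 2 molecules of 5-aminolevulinate into the first ring, was already present in the early cluster at 335, 485, 348 and 349 CPM. It stood at 1052, 1333, 975 and 913 CPM in the middle cluster and at 858, 736, 662 and 156 CPM in the globin-rich cluster, the last from 28 UMIs. The early and middle levels did not overlap, and the WT 2 library stood apart in the globin-rich cluster, below all 4 early values. The log2 difference was 1.5 ± 0.11 from early to middle and -1.07 ± 1.02 from middle to globin-rich. Counted per cell, Alad had 4.71, 9.68, 4.15 and 5.75 UMIs in early and 1.63, 1.24, 1.21 and 0.231 UMIs in globin-rich cells.

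The next enzymes differed from Alad at the globin-rich stage. Uros, which closes the ring, stood at 73.3, 83.7, 89.8 and 77.5 CPM in early, 367, 337, 277 and 255 in middle and 389, 269.8, 224 and 117 in globin-rich cells, so its globin-rich level was above the middle level in 1 library and below it in 3. Urod, which trims the side chains of the ring in the cytosol, stood at 187, 271, 197 and 206 CPM in early, 585, 748, 607 and 566 in middle and 879, 1038, 768 and 685 in globin-rich cells. Urod was thus higher at each stage in every library, by a log2 difference of 1.55 ± 0.10 and then 0.42 ± 0.14. Counted per cell, Urod had 2.63, 5.42, 2.34 and 3.39 UMIs in early and 1.67, 1.75, 1.4 and 1.02 in globin-rich cells, and Uros 1.03 to 1.67 and 0.174 to 0.741, so both were lower per cell at the end while their shares were higher.

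The last 3 enzymes, which act at or in the mitochondrion, parted from each other. Cpox stood at 381, 314, 458 and 409 CPM in early, 991, 795, 1018 and 978 in middle and 832, 494, 641 and 329 in globin-rich cells, a log2 difference of 1.28 ± 0.10 and then -0.79 ± 0.56. Ppox stood at 60.7, 71.0, 50.3 and 47.4 CPM in early, 285, 258, 254 and 195 in middle and 387, 384, 259 and 150.3 in globin-rich cells, where WT 2 was again the lowest. Fech, the last step, stood at 78.2, 90.2, 88.0 and 95.4 CPM in early, 442, 396, 497 and 326 in middle and 1212, 1459, 923 and 919 in globin-rich cells. The Fech stages did not overlap, with log2 differences of 2.23 ± 0.35 and 1.43 ± 0.41, so among the 7 enzymes Alas2, Urod and Fech were the ones with their highest level in the globin-rich cluster in all libraries. Counted per cell, Cpox had 5.35 to 6.74 UMIs in early and 0.488 to 1.59 in globin-rich cells, and Ppox 0.599 to 1.42 and 0.223 to 0.737, lower in globin-rich cells in every library. Fech had 1.1, 1.8, 1.05 and 1.57 UMIs per early cell and 2.31, 2.45, 1.68 and 1.36 per globin-rich cell, higher in 3 libraries and lower in WT 2.

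Both Tfrc and Slc25a37 had their highest levels in the globin-rich cluster. Tfrc stood at 160.2, 132, 234 and 185 CPM in early, 612, 387, 709 and 641 in middle and 854, 722, 753 and 763 in globin-rich cells, with log2 differences of 1.72 ± 0.18 and 0.43 ± 0.35. Slc25a37 stood at 67.4, 47.2, 78.6 and 65.7 CPM in early, 1009, 502, 1201 and 691 in middle and 2742, 1815, 2225 and 1916 in globin-rich cells, with log2 differences of 3.66 ± 0.30 and 1.41 ± 0.40. Slc25a37 thus had a 12.7-fold difference between the early and middle clusters, next in size to that of Alas2 among the members. Counted per cell, Tfrc had 2.25 to 3.06 UMIs in early and 1.13 to 1.63 in globin-rich cells, whereas Slc25a37 had 0.936 to 1.08 and 2.84 to 5.22.

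**Figure D1:**
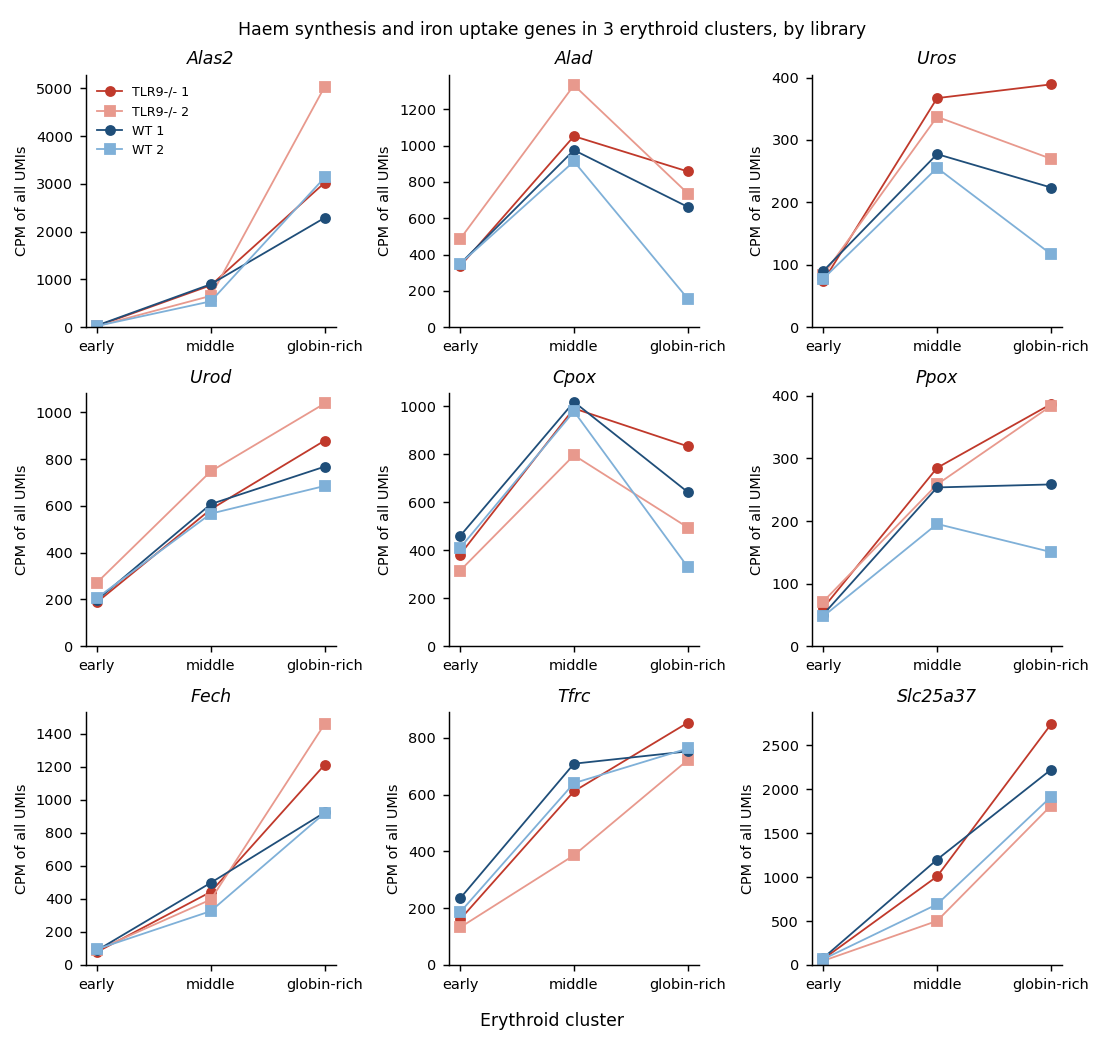
Levels of the 9 members, in CPM (linear axes from 0), in the early, middle and globin-rich erythroid clusters, with 1 line per library. All members are higher in the middle than in the early cluster in the 4 libraries, and Alad and Cpox are lower again in the globin-rich cluster in the 4 libraries.

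Globin UMIs count in the denominator and lower the share of every other gene, so the levels were computed again as CPM of the UMIs other than globin, called non-globin CPM below. The difference from early to middle was again positive for 9 members in 4 libraries. From middle to globin-rich, 6 members were then higher in every library, with Ppox added to the 5 above, none was lower in every library, and Alad, Uros and Cpox were mixed. The log2 difference of Alad was then -0.35 ± 1.00 and that of Cpox -0.08, while that of Alas2 was 2.87, of Slc25a37 2.13, of Fech 2.15, of Tfrc 1.15 and of Urod 1.13. The lower levels of Alad and Cpox in the globin-rich cluster thus depend on the denominator.

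A finer order was made from the alpha globin content of each erythroid cell, its UMIs as a percent of all UMIs other than beta globin, in 7 bins with lower edges at 0, 0.3, 1, 3, 6, 12 and 25%. Alpha globin was used because the beta globin share differed between libraries with different numbers, a choice made after the data were seen. The alpha globin share differed by number too. Its median was 12.8%, 23.8%, 14.9% and 29.8% in the globin-rich cluster, higher in the libraries numbered 2. In the middle cluster it was 4.27%, 2.38%, 5.76% and 3.76%, lower in the libraries numbered 2. A bin is therefore not a matched stage between libraries, and the order is read within each library. The bins held 758, 300, 503, 555, 738, 718 and 209 cells over the 4 libraries, and at least 22 cells in each library. Levels in the bins are non-globin CPM.

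Alas2 had its highest level in the last bin in 4 of 4 libraries and was higher in each bin than in the one before it up to the sixth in all of them. It stood at 8.93, 6.03, 12.3 and 6.43 non-globin CPM in the first bin, 1892, 1349, 1375 and 759 in the fourth, 6714, 7607, 5454 and 3116 in the sixth and 9789, 16903, 9575 and 10672 in the last. The sixth bin was 444 to 1262 times the first, in which Alas2 had 25, 30, 24 and 24 UMIs. No other member covered such a range: the same ratio was 101 to 138 for Slc25a37, 16.3 to 33.8 for Fech, at least 12.6 for Ppox, 9.29 to 16.4 for Tfrc, 5.34 to 10.4 for Urod, 6.04 to 8.68 for Uros, 2.71 to 5.2 for Alad and 3.86 to 4.21 for Cpox.

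Alad and Cpox peaked earlier than Alas2, in the fifth bin in 3 libraries and in the sixth in WT 2. Alad stood at 2069, 2362, 1815 and 1346 non-globin CPM in the fifth bin, 1398, 1232, 1741 and 1375 in the sixth and 110.0, 248, 44.3 and 102 in the last, below its level in the first bin (336, 455.5, 334 and 287) in every library. The values of Alad in the last bin rest on few UMIs in each library, so their size is uncertain. Cpox stood at 1906, 1388, 1785 and 1336 in the fifth bin and at 1870, 275, 798 and 665 in the last, where the libraries spread widely and TLR9-/- 1 stayed near its peak. Uros peaked in the fifth bin in both TLR9-/- libraries and in the sixth in both WT libraries, and Ppox in the sixth bin in all 4. The order within libraries was therefore Alad and Cpox no later than Ppox, and Ppox before Alas2.

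Fech and Urod had their highest level in the last bin in 3 libraries and in the sixth in TLR9-/- 1. Fech stood at 74.3, 80.2, 78.8 and 72.6 non-globin CPM in the first bin, 2513, 1902, 2270 and 1182 in the sixth and 2420, 4597, 2615 and 2610 in the last. Slc25a37 was highest in the last bin in 3 libraries and in the sixth in TLR9-/- 2, with 8249, 3386, 7048 and 5681 non-globin CPM in the last. Tfrc was highest in the sixth bin in 3 libraries, at 1855, 1982, 2014 and 1827, and stood at 2200, 853, 1419 and 1408 in the last. The receptor that brings iron into the cell was thus below its peak in 3 of 4 libraries in the cells with the most alpha globin, where the first enzyme was at its peak in 4 of 4.

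**Figure D2:**
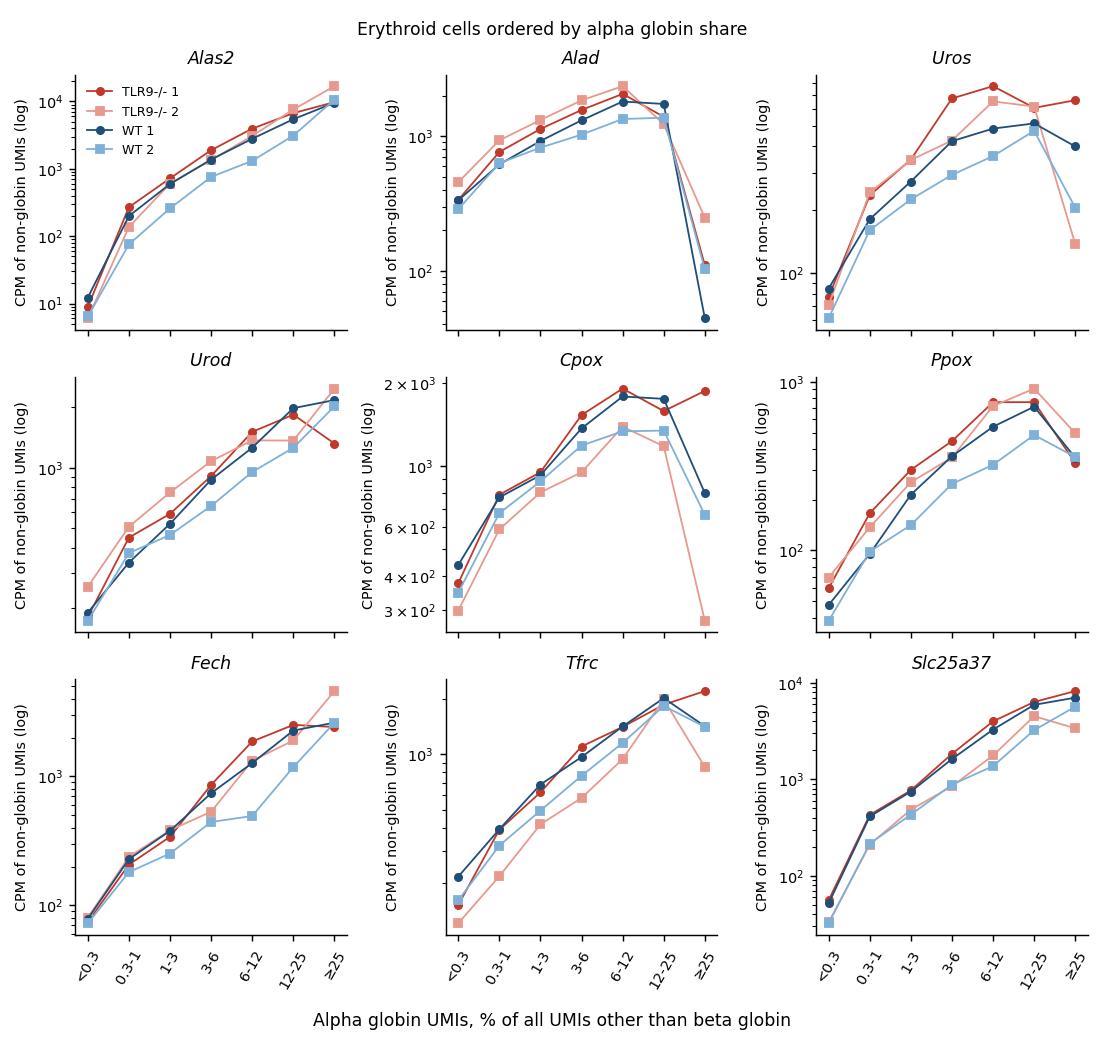
Non-globin CPM of the 9 members (log axis) in 7 bins of erythroid cells ordered by their alpha globin share, with 1 line per library. Alas2 climbs to the last bin in the 4 libraries, whereas Alad peaks in the fifth or sixth bin and ends at 44.3 to 248 non-globin CPM, from few UMIs.

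The order holds for shares of RNA, not for molecules per cell. It is built on alpha globin, which itself belongs to the same cells, and the beta to alpha globin ratios above differed between libraries with different numbers. With bins of all globins in place of alpha globin, Alas2 again peaked in the last bin in 4 of 4 libraries, with a ratio of the sixth to the first bin of 815 to 3587. The first of these bins held only 10, 22, 8 and 8 Alas2 UMIs, so the size of this ratio is uncertain. The order of Alad was less stable: its peak then lay in bins 6, 4, 6 and 5, its ratio of the sixth to the first bin ran from 0.986 to 7.02, and in WT 1 its last bin was above its first. Peaks of Cpox then lay in bins 6, 4, 6 and 5 as well, so the earlier peak of these genes than of Alas2 held under both orders in the 4 libraries, while the bin of the peak did not.

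Beside the members, lists of related genes fixed with earlier results of these data known were followed over the same stages in non-globin CPM, over genes with at least 10 CPM. From early to middle, 9 of 9 members were higher in all 4 libraries (median log2 difference 2.10), against 34.0% of all 7716 genes (median -0.06). Of 12 other genes of haem synthesis and its mitochondrial transport, 9 were higher and 2 lower (median 1.45), and of 7 genes of haem export and breakdown, 4 were higher and 1 lower (0.75). Genes of iron handling other than Tfrc and Slc25a37 did not share one direction, since of 13 other genes of iron uptake, storage and export 5 were higher and 5 lower (0.30) and of 14 genes of iron sensing and iron-sulphur cluster assembly 6 were higher and 6 lower (-0.09).

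Globins and their regulators were higher in 5 of 5 (4.77). The globin genes were markers of the late clusters and set the order of the stages, so their direction was given in advance. Erythroid transcription factors and receptors were higher in 9 of 12 with 3 lower (0.74). Genes of G2 and mitosis were higher in 15 of 15 (1.59), so the middle cluster also held a larger share of mitotic RNA than the early one. From middle to globin-rich, 6 of 9 members were higher (median 1.11) against 16.8% of all genes (median -0.32). The other haem genes were then 4 higher and 3 lower (0.15), export and breakdown 4 and 2 (0.28), iron uptake and storage 2 and 7 (-0.60), iron sensing 4 and 2 (-0.19), the globin list 5 and 0 (2.57), transcription factors 3 and 3 (0.04) and mitosis 2 and 2 (0.39).

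Across the 17 named classes of cells, the late erythroid-like class had the highest level of all 9 members, with no overlap of its 4 libraries with any other named class. Its mean levels were 1131 CPM for Alas2, 1008 for Alad, 303 for Uros, 668 for Urod, 891 for Cpox, 258 for Ppox, 534 for Fech, 617 for Tfrc and 1100 for Slc25a37. The early erythroid-like class came next for Alad (379), Uros (81.1), Urod (215), Cpox (390), Ppox (57.4) and Fech (87.9), and overlapped the few mesenchymal or endothelial cells for Cpox, Ppox and Fech. For Alas2, Tfrc and Slc25a37 another class stood beside or above it.

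Erythroid-like cells held 85.9%, 85.7%, 86.3% and 86.0% of all Alas2 UMIs, and a further 7.91% to 10.0% lay in 2 unnamed clusters. The next classes of Alas2 were plasma cells (35.4, 2.32, 90.6 and 17.5 CPM), early erythroid-like cells (19.5 to 32.8) and T cells (mean 21.4), which overlapped each other. Granulocyte precursors, with 0.372, 2.90, 2.19 and 2.04 CPM from 4, 53, 7 and 13 UMIs, lay far below. Thinned to 1000 UMIs per cell, 3.02%, 3.79%, 2.86% and 3.96% of early erythroid-like cells held an Alas2 UMI (15.7%, 19.9%, 18.7% and 19.7% unthinned, at medians of 10831 to 20735 UMIs), against at most 0.271% of granulocyte precursors in any library (0.558% to 1.88% unthinned, at medians of 11952 to 23952 UMIs). In middle erythroid-like cells the thinned share was 62.3%, 54.8%, 61.9% and 44.8%. Thinning left out cells under 1000 UMIs, which were 36 early, 130 middle and 205 globin-rich cells.

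Outside erythroid cells, Alas2 was set beside beta globin. Per 1000 UMIs of the beta globin gene Hbb-bs, late erythroid-like cells held 7.61, 27.7, 5.76 and 17 Alas2 UMIs. Monocytes held 6.24, 22.1, 4.81 and 15.5, haematopoietic stem and progenitor cells (HSPC) 4.16, 19.5, 7.35 and 17.3, and plasmacytoid dendritic cells 3.46, 19.5, 4.80 and 14.2. These ratios rest on 104, 23 and 22 Alas2 UMIs over the 4 libraries. The ratio was lower in the libraries numbered 1 than in those numbered 2 in these classes as it was in erythroid cells. In immature neutrophils, with 133 Alas2 UMIs, it was 12.7, 19.5, 5.31 and 12.7, so TLR9-/- 1 was not below WT 2 there. Mature neutrophils held 2.03, 10.1, 5.66 and 18.3, and B cell precursors 4.02, 14.2, 5.39 and 9.44. Granulocyte precursors held 3.08, 21.8, 10.3 and 14.3, from 77 Alas2 UMIs. T cells held 10.2, 29.1, 6.35 and 10.9, from 67 UMIs, and B cells 4.8, 44.4, 6.07 and 19.1, from 40 UMIs. The ratios were 19.1, 250, 12.6 and 13.7 in plasma cells and 7.54, 11.5, 4.27 and 62.5 in basophils, from 79 and 34 Alas2 UMIs over the 4 libraries. The values of 250 and 62.5 rest on very few UMIs. Plasma cells held 0.03% of the Alas2 UMIs of TLR9-/- 2, and basophils held 0.0787% of those of WT 2. NK cells and conventional dendritic cells of the libraries numbered 2 had no Alas2 UMI. Slc25a37 was higher against beta globin in several classes: late erythroid-like cells held 7.65, 16.8, 6.63 and 18.7 UMIs per 1000 of Hbb-bs, mature neutrophils 94.3, 869, 13.8 and 107 and granulocyte precursors 205, 166, 115 and 189.6. In T cells its ratio was 8.21, 27.7, 5.89 and 17.1, near that of late erythroid-like cells.

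**Figure D3:**
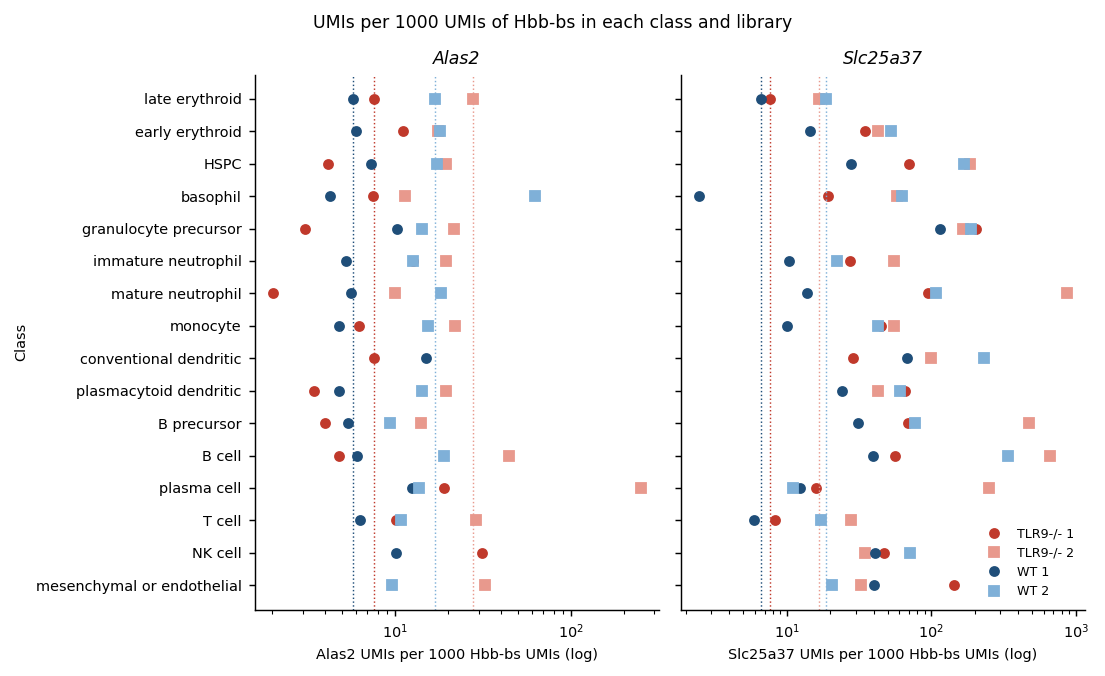
UMIs of Alas2 and Slc25a37 per 1000 UMIs of Hbb-bs in each named class and library (log axis), with dotted lines at the value of late erythroid cells of each library; classes without a UMI are not drawn. Alas2 ratios of monocytes, HSPC and plasmacytoid dendritic cells (104, 23 and 22 Alas2 UMIs) lie near the lines of their own library, whereas Slc25a37 ratios of granulocyte precursors lie between 115 and 205, above all 4 lines.

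Tfrc had its second highest mean in plasmacytoid dendritic cells, at 230, 176, 155 and 187 CPM, which overlapped the early erythroid-like class (132 to 234). Conventional dendritic cells stood at 81.1, 98.7, 98.5 and 106 CPM and B cell precursors at 69.3, 50.4, 88.3 and 66.4. The small classes of mesenchymal or endothelial cells (62 cells) and macrophages (31 cells) had means of 107 and 73.9 CPM. HSPC had a mean of 38.0, monocytes of 11.1 and mature neutrophils of 7.71 CPM. Erythroid-like cells held 48.8%, 50.6%, 65.7% and 63.8% of all Tfrc UMIs and plasmacytoid dendritic cells 11.8%, 10.7%, 6.28% and 4.61%. Thinned to 1000 UMIs, 19.1%, 15.8%, 15.9% and 15.9% of plasmacytoid dendritic cells held a Tfrc UMI (39.3%, 42.3%, 27.2% and 36.2% unthinned, at medians of 2037 to 3525 UMIs), against 0.682%, 0.421%, 1.11% and 1.20% of monocytes, whose medians of 3526 to 5307 UMIs were higher.

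Slc25a37 had its next level after late erythroid-like cells in mature neutrophils, at 113, 46.3, 67.3 and 85.3 CPM, which overlapped early erythroid-like cells (47.2 to 78.6) and B cells (45.5, 36.9, 49.0 and 58.5). Thinned to 1000 UMIs, 9.65%, 5.94%, 2.11% and 7.32% of mature neutrophils held a UMI (7.62% to 11.8% unthinned, at medians of 851 to 1900 UMIs), against a mean of 1.38% of monocytes and 1.17% of plasmacytoid dendritic cells. Ppox, too, had a level in mature neutrophils, 23.1, 22.6, 27.7 and 32.0 CPM, where Alad (mean 4.25) and Cpox (3.60) were low. Mesenchymal or endothelial cells, only 12 to 17 per library, had means of 126 CPM for Alad, 207 for Cpox, 72.2 for Urod and 107 for Tfrc. Of these cells 17.7% were marked as doublets. They held 0.482% of all Hbb-bs UMIs in WT 2, against at most 0.0486% in the other libraries. The part of erythroid RNA in their levels was not tested.

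Alas1, which makes the housekeeping form of the first enzyme, lay almost entirely elsewhere. It stood at 470, 496, 319 and 323 CPM in granulocyte precursors, which held 74.2%, 79.7%, 58.3% and 62.1% of its UMIs, and erythroid-like cells held 0.704% to 1.90%. In the early erythroid cluster it stood at 14.3, 14.1, 7.18 and 9.82 CPM and in the middle cluster at 5.85, 5.15, 2.03 and 6.05. The erythroid and the housekeeping gene of the same step thus ran in opposite directions from the early to the middle cluster in 4 of 4 libraries, with log2 differences of 4.94 ± 0.33 and -1.32 ± 0.47. The value of Alas1 rests on few UMIs. The late erythroid-like class held 0.103%, 0.149%, 0.343% and 0.513% of its 6821, 11381, 1750 and 3312 UMIs. In the globin-rich cluster Alas1 had no UMI in TLR9-/- 1 and WT 2.

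**Figure D4:**
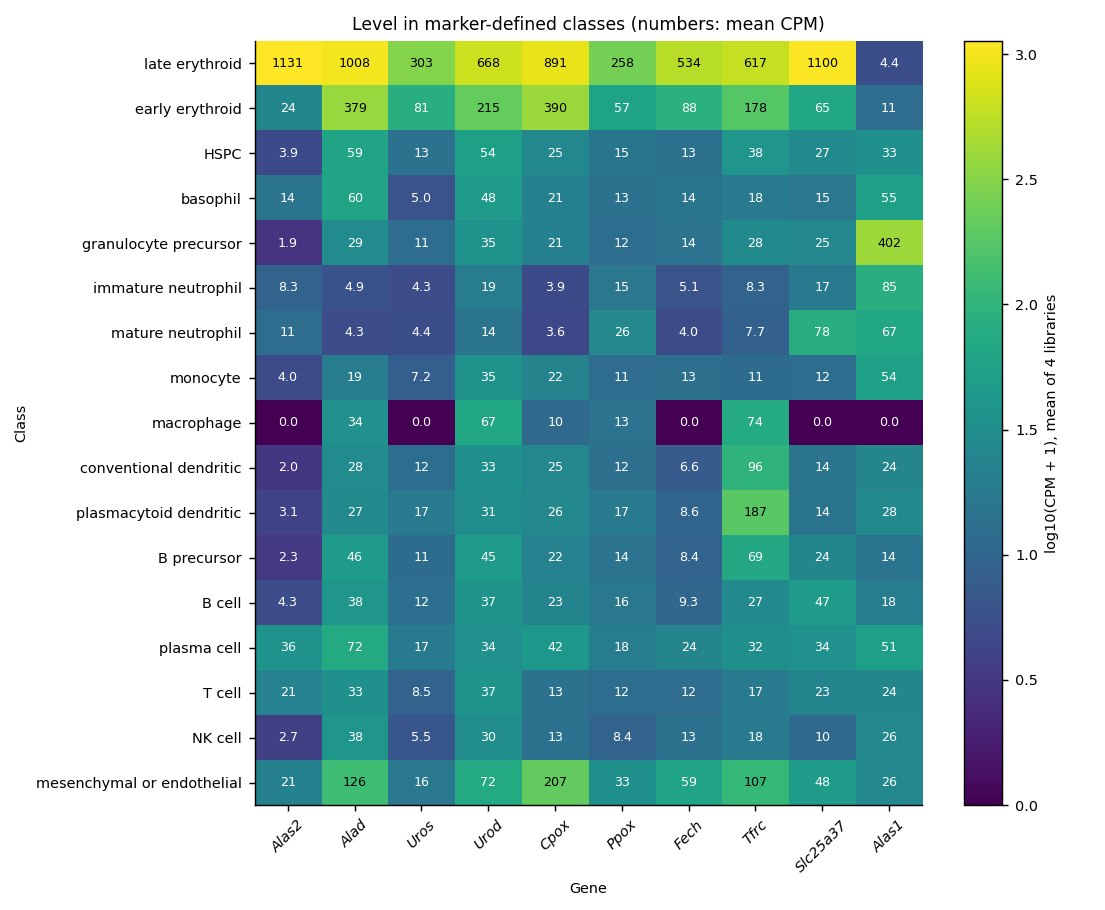
Mean level over 4 libraries of the 9 members and Alas1 in 17 named classes, with the mean CPM printed in each cell and the colour on a log10(CPM + 1) scale. The late erythroid row is highest for the 9 members, and granulocyte precursors are highest for Alas1, at 402 CPM.

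More than 50% of the UMIs lay in erythroid-like cells in every library for 7 of the 9 members. The exceptions were Urod, at 48.6% in TLR9-/- 1, and Tfrc, at 48.8% in the same library. The share was higher in WT 1 than in TLR9-/- 1 for all 9 members, as was the share of erythroid-like cells among the kept cells. In sums over whole marrow, more erythroid cells and more RNA of these genes per cell cannot be told apart.

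The pattern over the 17 classes was set beside those of the 11702 genes with at least 10 CPM in a class by Pearson's r of log2 mean levels, as a description over classes that share their libraries. The genes most like Alas2 were Fn3k (0.963), Hbq1b (0.961) and Apol8 (0.961), and those most like Alad were Glrx5 (0.978), a gene of iron-sulphur cluster assembly, and the erythrocyte peroxidase gene Prdx2 (0.964). Fech had Tmem120b (0.979) and Abcb6 (0.972) among the genes most like it, and those most like Urod were 2700097O09Rik (0.963), Fbxo7 (0.959) and the glycophorin C gene Gypc (0.954). Uros was most like Fahd1 (0.975), Dnajb3 (0.968) and Slc22a23 (0.963), Cpox like Mgst3 (0.970), Slc43a1 (0.966) and Tspan8 (0.966), and Ppox like the RNA gene Redrum (0.976), Tac2 (0.975) and Sowaha (0.974). The likeness was weaker for Tfrc, with Clic4 (0.899), Hs6st1 (0.874) and Gdpd1 (0.873), and for Slc25a37, with Sh3yl1 (0.922), Ppox (0.921) and Klhl12 (0.906). Among the members, r ran from 0.532 (Tfrc with Slc25a37) to 0.950 (Alad with Urod).

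Tfrc also serves dividing cells, so its level was set beside the summed level of 15 genes of G2 and mitosis. Over all 26 clusters Pearson's r was 0.602 and Spearman's rho 0.452. Over the 21 named clusters outside the erythroid ones they were 0.104 and 0.291. The clusters share their libraries, and no p is given.

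The genotypes were compared with edgeR's quasi-likelihood test on UMIs summed per library and class, over all genes and with Benjamini-Hochberg adjustment, in which a call is an adjusted p under 0.05. No member was called in early erythroid-like cells, in late erythroid-like cells or in the test of whether the genotype difference differed between them. The background was 31 of 9060 genes in early cells (0.342%, 12 higher and 19 lower in TLR9-/-, and 0 genes without WT replicate 1), 4 of 8000 in late cells (0.05%) and 3 of 9157 in the difference between the stages (0.0328%). At an unadjusted p under 0.05, edgeR gave 2, 0 and 0 members and DESeq2 1, 0 and 0, and DESeq2 called none. The share of all genes with such an unadjusted p by edgeR was 7.05%, 2.95% and 1.95%. The smallest adjusted p of a member by edgeR was 0.562 in early cells, 0.999 in late cells and 1 in the difference. With 2 mice per genotype, these p-values set a difference against the spread between libraries, which was estimated with the help of the other genes. Members that miss the threshold are not thereby shown to be alike.

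In early cells the members had a median log2 difference (TLR9-/- minus WT) of -0.13, against -0.02 over all genes, with 3 members higher and 6 lower. Tfrc stood at 146 ± 19.9 CPM in TLR9-/- and 210 ± 34.6 in WT (SD, n = 2 each), a log2 difference of -0.52 (SE 0.17; edgeR adjusted p = 0.562). Ppox stood at 65.9 ± 7.29 and 48.8 ± 2.05 CPM, a log2 difference of 0.43 (SE 0.17; edgeR adjusted p = 0.657). For Alas2 the difference was -0.41 (SE 0.22; edgeR adjusted p = 0.733), from 19.5 and 21.6 against 22.6 and 32.8 CPM, and for Cpox -0.32 (SE 0.16; edgeR adjusted p = 0.705), from 347 ± 47.3 and 434 ± 35.1 CPM. The genotypes did not overlap for these 4 of 9 members, which is near the background of 36.8% of all genes.

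The same cells differed in globin, on which the order of the stages above was built. In early cells Hbb-bt stood at 124, 84.2, 995 and 511 CPM, a log2 difference of -2.85 (SE 0.31; edgeR adjusted p = 0.00487), and Hba-a2 at 237 ± 52.2 CPM in TLR9-/- and 489 ± 16.8 in WT (SD, n = 2 each), a difference of -1.05 (SE 0.17; edgeR adjusted p = 0.0396). Both were called, the only calls among the members and the 7 related lists in early cells, in late cells and in the difference between stages. Hba-a1 (-1.03, adjusted p = 0.191) and Hbb-bs (-1.11, adjusted p = 0.697) were not called by edgeR. Globin UMIs were lower in TLR9-/- in some classes outside the erythroid lineage too, as given below, so the difference is not particular to early cells. Whether the early cells of the genotypes lay at the same point of maturation was not tested.

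In late cells the median log2 difference of the members was 0.16, against -0.01 over all genes. Uros stood at 353 ± 29.7 CPM in TLR9-/- and 254 ± 10.6 in WT, a log2 difference of 0.42 (SE 0.33; edgeR adjusted p = 0.999). The other differences ran from -0.34 (SE 0.44) for Tfrc to 0.31 (SE 0.38) for Ppox, and that of Alas2 was 0.27 (SE 0.53). Alad, Uros, Urod and Ppox, 4 of 9, did not overlap between genotypes, against 20.9% of all genes. The standard errors in late cells were larger than those in early cells for all 9 members, beside the unequal globin content of the middle cluster in libraries with different numbers. Slc25a37, for example, stood at 1530.0, 607, 1498 and 765 CPM in late cells, so the libraries numbered 1 lay at about the same level in both genotypes and those numbered 2 lay below them.

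The difference between stages in the genotype effect was largest for Alas2, at 0.68 (SE 0.37; edgeR adjusted p = 1), and was 0.46 (SE 0.30) for Uros. For the other members it lay between -0.13 and 0.30, with a median over the 9 of 0.11, against 0.00 over all genes. The related lists had no further calls, and their median log2 differences in early and late cells were -0.04 and 0.12 for other haem genes, 0.20 and 0.22 for export and breakdown, -0.11 and 0.13 for other iron uptake and storage, 0.04 and 0.13 for iron sensing, -1.05 and -0.29 for the globin list, 0.03 and 0.17 for transcription factors and -0.03 and 0.05 for mitosis.

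**Figure D5:**
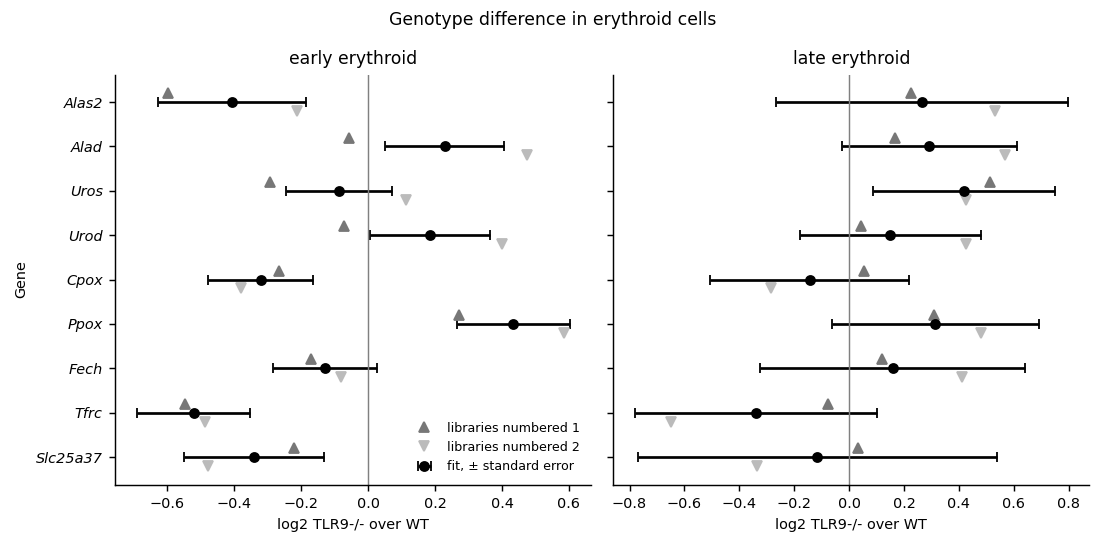
Log2 difference between TLR9-/- and WT (points, with bars of 1 SE from the edgeR fit) of the 9 members in early and late erythroid cells, with triangles for the ratio within the libraries numbered 1 and numbered 2. No member passed the threshold, and the bars are longer in late cells for the 9 members.

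Outside the erythroid lineage, 14 classes had enough cells for the same fit, with 95 tests of members, none of which was called (smallest adjusted p = 0.333 by edgeR). An unadjusted p under 0.05 was reached in 10 of the 95 by edgeR and in 2 by DESeq2, which called none. The share of all genes with such an unadjusted p by edgeR ran from 2.00% in plasma cells to 16.2% in mesenchymal or endothelial cells. It was 10.2% in granulocyte precursors, 9.45% in monocytes and 6.08% in B cells. Of all genes tested, the share called was 0.215% in B cells, 0.643% in B cell precursors, 0.219% in HSPC, 0.0919% in NK cells, 0.182% in T cells, 0.172% in basophils and 0.206% in conventional dendritic cells. It was 0.427% in granulocyte precursors, 0.581% in immature neutrophils, 0.159% in mature neutrophils, 0.649% in monocytes, 0.289% in plasmacytoid dendritic cells and 0% in mesenchymal or endothelial cells and in plasma cells.

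Tfrc was lower in TLR9-/- in 11 of 14 classes tested, erythroid classes included. In B cells it stood at 24.7, 13.9, 38.1 and 30.5 CPM (log2 difference -0.85, edgeR adjusted p = 0.641), in HSPC at 31.2, 29.3, 49.7 and 41.8 (-0.59, adjusted p = 0.514 by edgeR) and in monocytes at 9.47, 8.94, 13.3 and 12.6 (-0.49, adjusted p = 0.522 by edgeR). Cpox and Slc25a37 were each lower in 11 of 14 classes and Alad was higher in 11 of 15. The classes come from the same 4 mice, so they are not separate tests of a direction. A class is counted only where the gene passed the filter on low counts, which the libraries of a single genotype can meet.

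Alas2 was lower in TLR9-/- in 8 of 9 classes tested. The filter on low counts left it out of the rest of the 16 fitted classes, and the libraries of 1 genotype alone can meet that filter. This count of directions is therefore not evidence of a lower level. In mature neutrophils Alas2 stood at 2.43, 0.539, 27.7 and 14.5 CPM, from 2, 1, 7 and 15 UMIs, a log2 difference of -3.80 (SE 0.88; edgeR adjusted p = 0.553). Alpha and beta globin moved the same way there, with -2.54 for Hba-a1 and -2.87 for Hbb-bt. In B cell precursors the Alas2 difference was -1.46 (edgeR adjusted p = 0.486). The ratios of Alas2 to Hbb-bs in both classes are given above, and the source of these UMIs was not tested. With no filter on low counts the difference in mature neutrophils passed the threshold (-3.70, edgeR adjusted p = 0.00355).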

How the data were processed

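The authors deposited UMI counts per gene and cell for each of 4 libraries, made with Cell Ranger 3.0.1 (per the file headers), and the submitters' processing notes name STAR, the mm10 build and Seurat 2.3.4. The deposited counts precede the step by which the authors brought the libraries to equal depth. The report gives the depth of the libraries, each of which is 1 mouse.

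Cells with 200 to 10000 genes and at most 10% mitochondrial UMIs were kept. The methods print the mitochondrial limit as a percent that was read here as a fraction. Cells were clustered with scanpy 1.11.5 (2000 variable genes less the members, 30 principal components, 15 neighbours, Leiden resolution 1). A cluster was named where at least 3 of its 20 leading genes were markers of 1 class, by cell markers that held no member. Doublets were marked as the cells with the highest Scrublet scores at a rate of 0.8% per 1000 cells (3093 cells, 7.90%). Clusters with over 50% of marked doublets were left unnamed, a rule made after the clusters were seen, which left 2 clusters with 924 cells.

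UMIs were summed per library and class and tested with edgeR 4.0.16 in R 4.3.3 (quasi-likelihood test, TMM scaling, filterByExpr, two-sided, Benjamini-Hochberg). Classes with at least 10 cells in every library were fitted. The difference between stages was tested in 1 model with a term per library. DESeq2 1.42.0, other scalings, no filter, resolution 2, other stage definitions, doublets left out and each library left out were alternatives. Levels printed are UMIs scaled to 1000000 UMIs of the class (CPM), without TMM factors. Scripts were tested on simulated data.

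The members and lists were chosen with earlier results of these data known. All members are named, with Alas1, the globins, genes of the lists that were called and the 3 genes most like each member (levels of at least 10 CPM in at least 1 class, with 10 CPM added before the log), except for a few items that are not reported here. Ahsp was not matched by symbol. The alpha globin bins, the single-cluster stages and the fits with doublet-rich clusters kept were chosen after seeing the data.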

Additional observations from a re-analysis of the deposited data

How the results depend on the processing

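Calls over all genes depended on the processing, and members were called only under some of the alternatives. In early erythroid cells 31 genes were called, against 188 with no filter, 204 with the replicate number as a block, 19 at resolution 2 and 0 to 131 with 1 library left out (0 without WT replicate 1, 131 and 100 without TLR9-/- replicates 1 and 2, and 108 without WT replicate 2). In late erythroid cells 4 were called, against 17 by DESeq2, 71 with no filter, 139 with the block, 8 to 132 with 1 library left out (11 and 8 without TLR9-/- replicates 1 and 2, 60 and 132 without WT replicates 1 and 2) and 2 each at resolution 2, with late cells cut by globin share, with no minimum of genes per cell and in the globin-rich cluster alone. The difference between stages called 3 genes, against 16 with no filter, 4 to 20 with 1 library left out and 0 both without marked doublets and at resolution 2. In the other classes 353 calls became 1479 with no filter, 2299 with the block and 615 to 946 with 1 library left out.

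Of the members, the block called Tfrc in early cells (log2 difference -0.52, edgeR adjusted p = 0.00841), the 1 member it called there. It called 2 in other classes, Alas2 in mature neutrophils (-3.87, adjusted p = 0.0267 by edgeR) and Tfrc in B cells (-0.86, adjusted p = 0.0362 by edgeR). With no filter there were 2 calls in other classes, Alas2 in mature neutrophils (-3.70, edgeR adjusted p = 0.00355) and in basophils (-2.14, edgeR adjusted p = 0.016). With 1 library left out there were 0 to 1, namely Tfrc in B cells without TLR9-/- replicate 1 (-1.28, edgeR adjusted p = 0.0325), Cpox in the few mesenchymal or endothelial cells without TLR9-/- replicate 2 (-3.32, edgeR adjusted p = 0.00394), Alas2 in basophils without WT replicate 2 (-2.86, edgeR adjusted p = 0.00203) and none without WT replicate 1. Each such fit left 1 genotype with 1 library, which is assumed to vary like the rest. Same-numbered libraries deviated together in the 16 fitted classes (correlation 0.118 to 0.581), but there are only 2 such pairs, and though each experiment of the study held 1 mouse of each genotype, the labels do not say that a number marks an experiment.

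Differences near 0 changed sign. In late cells Alas2 became -0.0022 in the middle cluster alone. Cpox became 0.0082 by globin share, 0.020 with no minimum of genes as well and 0.33 in the globin-rich cluster alone, Slc25a37 became 0.34, 0.45 and 0.040, and Tfrc 0.013 and 0.0020 in the first 2 of these. Fech became -0.062 and Urod -0.035 with doublet-rich clusters kept, and Fech -0.070 in the middle cluster alone. Uros in early cells became 0.0088 by globin share. In the difference between stages Ppox became 0.090 at resolution 2, and Urod 0.0053 with DESeq2 size factors in edgeR, 0.00085 by DESeq2 and 0.12 at resolution 2. With 1 library left out, signs changed in 3 of 36 early, 12 of 36 late and 13 of 36 stage differences. The ranges in early cells were -0.036 to 0.46 for Alad, -0.084 to 0.42 for Urod and -0.17 to 0.00018 for Uros. In late cells they were -0.32 to 1.05 for Alas2, -0.53 to 0.16 for Cpox, -0.35 to 0.86 for Fech, -0.043 to 0.77 for Ppox, -1.23 to 0.72 for Slc25a37, -1.01 to 0.12 for Tfrc and -0.12 to 0.47 for Urod. For the difference between stages they were -0.19 to 0.36 for Alad, -0.066 to 0.33 for Cpox, -0.35 to 0.96 for Fech, -0.52 to 0.32 for Ppox, -0.47 to 0.73 for Slc25a37, -0.34 to 0.50 for Tfrc and -0.37 to 0.36 for Urod.

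All 9 members were higher in late than in early cells in every library, and 7 when late cells were cut by globin share, where the log2 difference went from 5.52 to 3.85 for Alas2, from 1.41 to 0.20 for Alad and from 1.20 to 0.29 for Cpox. The share of cells with a UMI was higher in globin-rich than in middle cells in every library for 3 members after thinning and for 1 without. The cause of these changes was not tested. In classes of few cells, such as plasma cells, counts of a few UMIs limit what can be seen.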

Other observations

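Cells below the limit of 200 genes included 1105 (252, 196, 499 and 158 per library) with at least 25% globin UMIs. Alas2 stood at 3468, 8553, 2617 and 4335 CPM in them and Fech at 547, 1745, 517 and 1032 CPM. In non-globin CPM, Fech stood at 3438, 6127, 3198 and 4060, against 1692 to 2448 in the globin-rich cluster. The place of Fech against the globin-rich cluster thus depends on the denominator. Slc25a37 stood at 997, 1142, 992 and 1199 CPM. Alad stood at 25.2, 17.4 and 21.3 CPM in the first 3 libraries and had no UMI in WT 2, and Uros stood at 6.66 to 14.4 and Cpox at 25.2 to 52.3 CPM. Alas2 was thus above its level in the globin-rich cluster in every library, while Alad and Cpox lay below their early erythroid levels in every library.

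A cluster of 402 cells, 84.1% of them marked as doublets, held erythroid and neutrophil genes together. Alas2 stood at 308, 166, 432 and 159 CPM there and Cpox at 299, 300.2, 347 and 364 CPM, beside 18274 to 32700 CPM of the neutrophil gene S100a8 and 5382 to 6590 CPM of the granulocyte precursor gene Elane. These cells are not part of the erythroid-like classes of the report.

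Alas1 lies 6571 bases from Tlr9 on chromosome 9 (chr9:106233455-106248654, minus strand, against chr9:106222598-106226883, plus strand, GRCm38), the gene that the TLR9-/- allele disrupts. In granulocyte precursors, where Alas1 is highest, it stood at 470 and 496 CPM in TLR9-/- and 319 and 323 CPM in WT, a log2 difference of 0.52 (edgeR adjusted p = 0.349), and in early erythroid cells the difference was 0.68 (edgeR adjusted p = 0.658). Neither passed the threshold.

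Globin UMIs also differed between genotypes outside the erythroid clusters. In immature neutrophils the log2 difference was -1.98 for Hbb-bt (edgeR adjusted p = 0.000147), -1.72 for Hba-a1 (0.000913), -1.62 for Hba-a2 (0.000913) and -1.52 for Hbb-bs (0.0315), all lower in TLR9-/-. In T cells it was -2.06 for Hbb-bt (edgeR adjusted p = 0.00429) and in B cell precursors -1.75 for Hba-a1 (edgeR adjusted p = 0.029). Erythroid-like cells were 7.49% ± 0.170 of cells in TLR9-/- and 11.6% ± 3.98 in WT (SD, n = 2 each), and the part of this in the globin counts of other classes was not tested.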
